A study of Mus musculus with 12 samples.

Results

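A set of 10 genes of skeletal muscle was followed across newborn mouse bladders, to show which samples carried RNA of striated muscle. They were Ckm, Myh3, Myh8, Tnnt3, Tnni2, Tnnc2, Mylpf, Myog, Myod1 and Atp2a1. Their members on the array were the probe sets that the platform annotation assigns to one of these symbols and to no other gene, which gave 14 of 45037 probe sets and 10 of 18193 genes. Where a gene had several probe sets, the one with the highest mean over the arrays stood for it.

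Each of the 12 one-colour arrays held RNA from 1 whole bladder of an FVB/N mouse at postnatal day 1. SMGA/EGFP mice (3 arrays) carried green fluorescent protein under the promoter of smooth muscle gamma actin (Actg2), and SMAA/EYFP mice (3 arrays) carried yellow fluorescent protein under the promoter of smooth muscle alpha actin (Acta2). Wild-type mice (6 arrays) carried neither reporter. All bladders were labelled male, none was pooled and no group received a treatment. Transgenic males were mated to FVB/N females, and genotype cannot be told apart from litter or sire. The SMGA/EGFP arrays and wild type 1 to 3 have the earlier record numbers of the submitters, and the SMAA/EYFP arrays and wild type 4 to 6 have the later ones. The labels do not call these 2 runs of record numbers batches. Replicate numbers here only name the arrays.

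Skeletal muscle fibres form when myoblasts, directed by MyoD and myogenin, leave the cell cycle, fuse and build sarcomeres, in which myosin filaments pull on actin filaments under the control of the troponin complex. Developing fibres use embryonic and neonatal myosin heavy chains before adult fast and slow chains replace them. The detrusor, the muscle of the bladder wall, is smooth muscle and uses a different myosin. Striated muscle nearby includes the urethral sphincter and the muscles of the body wall and pelvic floor.

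Myh3, Mylpf, Myog, Myod1 and Atp2a1 differed many-fold between single bladders and were high together on the same arrays. Ckm, Tnnt3, Tnnc2, Tnni2 and Myh8 were well above background on all 12 arrays and varied less, Tnni2 and Myh8 more than the others of the 5. This division into 5 varying and 5 other genes was made after their values were seen, and nothing is tested on it. Wild type 2, SMGA/EGFP 2 and SMGA/EGFP 1 held the highest levels of the varying genes. By the mean over these 5 genes, SMAA/EYFP 2 and wild type 1 came next, and the other 7 bladders were low. Single genes departed from this order, with Myod1 not raised in SMAA/EYFP 2 (57.9) and Atp2a1 not raised in wild type 1 (196). The high bladders came from different groups, and no gene of the set differed between groups past the threshold. In whole bladders, fewer cells of a type and less RNA per cell cannot be told apart.

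The sequence before the start of 2 varying and 2 other genes is shown because MyoD and myogenin act through E-boxes, whose letters are CANNTG. Each line gives the 200 bases before the RefSeq gene start, read 5′ to 3′ on the gene's strand in build GRCm38.p6, with every CANNTG in capitals. Of the 10 genes, 7 were in the promoter table.
Myog, chr1:134289804-134290003, plus strand: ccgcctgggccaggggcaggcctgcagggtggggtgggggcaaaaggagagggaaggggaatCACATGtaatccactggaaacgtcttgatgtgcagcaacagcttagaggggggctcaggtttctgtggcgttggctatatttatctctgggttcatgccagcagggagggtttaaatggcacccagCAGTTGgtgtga
Mylpf, chr7:127211408-127211607, plus strand: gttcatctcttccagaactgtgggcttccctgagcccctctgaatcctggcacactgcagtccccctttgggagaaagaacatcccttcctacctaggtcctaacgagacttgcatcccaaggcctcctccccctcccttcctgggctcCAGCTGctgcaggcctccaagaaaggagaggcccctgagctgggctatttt
Tnnc2, chr2:164779735-164779934, minus strand: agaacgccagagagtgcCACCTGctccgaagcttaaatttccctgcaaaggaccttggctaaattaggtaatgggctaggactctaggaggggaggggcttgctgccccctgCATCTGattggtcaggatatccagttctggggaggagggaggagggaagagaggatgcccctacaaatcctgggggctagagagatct
Ckm, chr7:19410894-19411093, plus strand: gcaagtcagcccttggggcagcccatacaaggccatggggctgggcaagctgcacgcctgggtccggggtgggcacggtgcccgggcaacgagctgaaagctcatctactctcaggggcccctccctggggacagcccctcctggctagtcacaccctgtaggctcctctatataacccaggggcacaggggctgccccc
The window of Myog holds CANNTG 138 and 12 bases before the start, that of Tnnc2 183 and 88 bases before it, and that of Mylpf 51 bases before it. CANNTG reads as CANNTG on both strands. It was found in 6 of the 7 windows and in 58.2% of 32851 promoter windows of the same length. CAGCTG, which is 1 form of CANNTG, was found in 2 of the 7 (Mylpf and Atp2a1) and in 10.9% of all windows. The window of Ckm holds no CANNTG, which says only that these letters are not in these 200 bases.

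Myog encodes myogenin, the transcription factor that drives myoblasts into terminal differentiation. Its deposited intensity was 706, 796 and 44.6 in SMGA/EGFP 1, 2 and 3. In SMAA/EYFP 1, 2 and 3 it was 63.5, 146 and 16.1. Wild type 2 had the highest value of all, 1497, followed in that group by 350 in wild type 1, while the other 4 wild-type bladders lay between 15.2 and 89.9. The 3 groups overlapped, and SMGA/EGFP 1, SMGA/EGFP 2, wild type 1 and wild type 2 stood above all other bladders.

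Myod1 encodes MyoD, the factor that commits cells to the muscle lineage. It read 215, 302 and 105 in SMGA/EGFP bladders and 26.7, 57.9 and 81.8 in SMAA/EYFP bladders. In wild type it was 476 in wild type 2, 170 in wild type 1 and 41.6 to 114 in the others. All 3 SMGA/EGFP values lay above all 3 SMAA/EYFP values, which made Myod1 the 1 gene of the 10 whose groups did not overlap in that comparison, against 14.0% of the 18193 genes. However, Myod1 exceeded the level of genes of unrelated tissues, described below, on only 2 of the 12 arrays (SMGA/EGFP 2 and wild type 2). The other values compared, among them all 3 of SMAA/EYFP, lay under that level. A second Myod1 probe set stayed at or under 67.5 on every array.

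**Figure D1:**
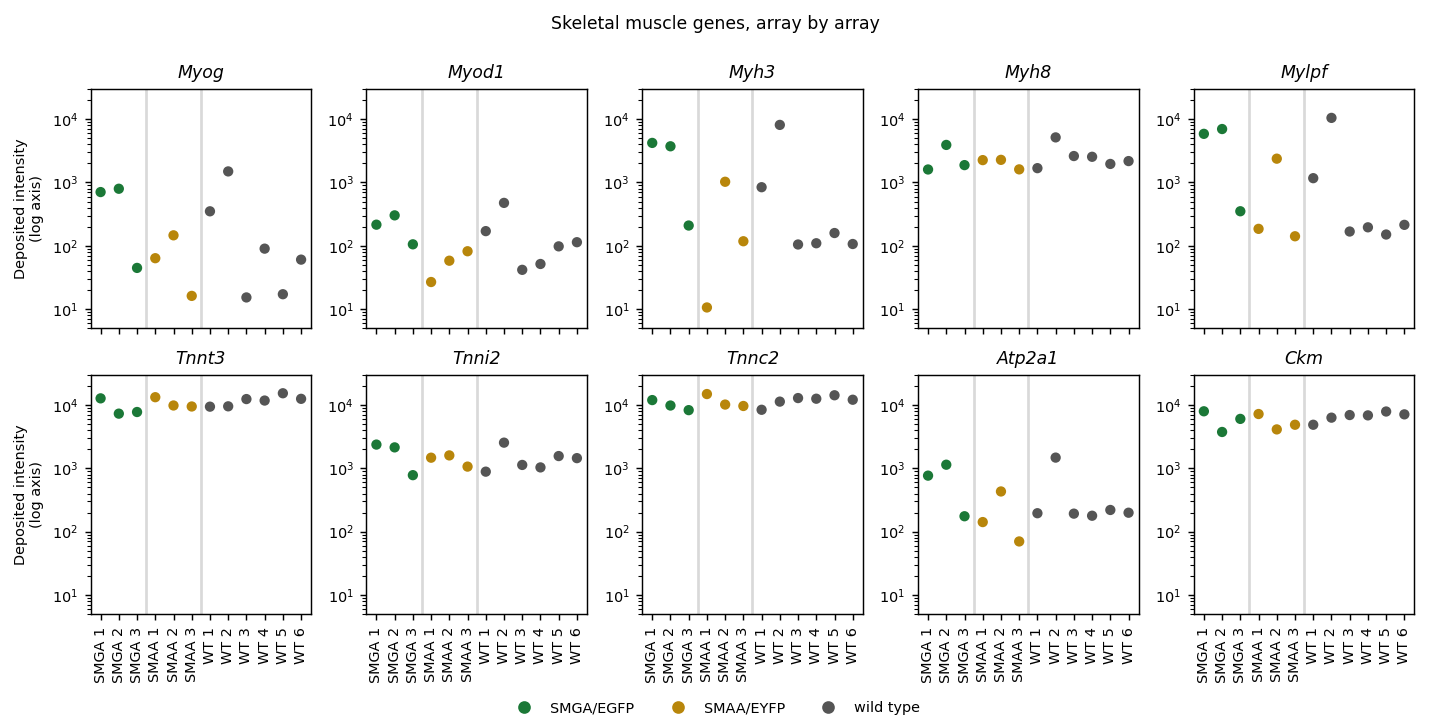
Deposited intensity (log axis) of the 10 skeletal muscle genes on each of the 12 arrays, 1 panel per gene and 1 point per bladder, with SMGA/EGFP left of SMAA/EYFP and wild type. Myog, Myod1, Myh3, Mylpf and Atp2a1 peak in wild type 2 (8145 for Myh3), while Tnnt3, Tnnc2 and Ckm form nearly level rows.

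Myh3 encodes the embryonic myosin heavy chain, the first skeletal myosin of a developing fibre. It read 4225, 3738 and 209 in SMGA/EGFP 1, 2 and 3 and 10.6, 1027 and 118 in SMAA/EYFP 1, 2 and 3. Wild type 2 reached 8145 and wild type 1 read 842, and the other 4 wild-type bladders lay between 105 and 159. The brightest bladder was 771 times the dimmest, but the dimmest value lay near the floor, at the 5.97th percentile of its array. The next lowest was 105 in wild type 3. On the log2 scale the SD of Myh3 over the 12 bladders, the floor value included, was 2.57. This was rank 1 among the 22518 probe sets bright enough to be tested, whose median SD was 0.239.

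Mylpf encodes the regulatory light chain of fast skeletal myosin and followed the same bladders. It read 5881, 7007 and 351 in SMGA/EGFP 1, 2 and 3 and 185, 2381 and 141 in SMAA/EYFP 1, 2 and 3. In wild type it was 10516 in wild type 2, 1170 in wild type 1 and 150 to 214 in the others. Its log2 SD of 2.35 had rank 4 among the probe sets tested. In the SMAA/EYFP group bladder 2 was high and the other two were as low as most wild-type bladders.

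Myh8 encodes the neonatal myosin heavy chain, which follows the embryonic one. It was present on every array, at 1606, 3928 and 1883 in SMGA/EGFP bladders and 2259, 2281 and 1613 in SMAA/EYFP bladders. The wild-type bladders had a lowest value of 1685, a median of 2365 and a highest of 5168, the last in wild type 2. Wild type 2 and SMGA/EGFP 2 were again the 2 highest, but SMGA/EGFP 1, which was high in Myh3 and Mylpf, had the lowest Myh8 value of the 12.

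The 3 troponin genes belong to the fast fibre complex that makes contraction depend on calcium. Tnni2, the inhibitory subunit, read 2384, 2153 and 783 in SMGA/EGFP bladders and 1479, 1607 and 1069 in SMAA/EYFP bladders. Wild-type values ran from 889 to 2558 with a median of 1295. SMGA/EGFP 1, SMGA/EGFP 2 and wild type 2 were the 3 highest, as for the varying genes, but the dimmest bladder, SMGA/EGFP 3, was still at 783. Of the other Tnni2 probe sets, one ran from 254 in wild type 1 to 871 in wild type 2 and one stayed at or under 38.0.

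Tnnt3, the subunit that binds tropomyosin, read 12834, 7354 and 7806 in SMGA/EGFP bladders and 13388, 9899 and 9545 in SMAA/EYFP bladders, against a wild-type range of 9482 to 15449. Tnnc2, the subunit that binds calcium, read 12054, 9888 and 8354 in SMGA/EGFP bladders and 15010, 10236 and 9720 in SMAA/EYFP bladders, against a wild-type range of 8466 to 14362. Neither gene was highest in wild type 2, SMGA/EGFP 1 or SMGA/EGFP 2. Tnnt3 peaked in wild type 5 and Tnnc2 in SMAA/EYFP 1, a bladder where Myh3 was at 10.6.

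Atp2a1 encodes SERCA1, the pump that returns calcium to the sarcoplasmic reticulum of fast fibres. It read 769, 1145 and 175 in SMGA/EGFP 1, 2 and 3 and 142, 432 and 70.0 in SMAA/EYFP 1, 2 and 3. Wild type 2 read 1484, and the other 5 wild-type bladders lay between 179 and 220. Wild type 1, which was raised in Myh3, Mylpf and Myog, was not raised here at 196.

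Ckm encodes muscle creatine kinase, which buffers ATP in contracting fibres. It read 8013, 3772 and 6076 in SMGA/EGFP bladders and 7256, 4143 and 4909 in SMAA/EYFP bladders, against a wild-type range of 4906 to 7950 with a median of 6947. SMGA/EGFP 2, among the 3 highest bladders for 7 of the other genes, had the lowest Ckm value. The second Ckm probe set ran from 201 in wild type 2 to 400 in wild type 5.

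As a check of the gene set, its values were compared with background. This shows whether a gene was read, not which cells expressed it. A level for genes that a bladder should not express was taken on each array as the 95th percentile of 32 probe sets of 22 genes of the eye, testis, ovary, pancreas, pituitary and olfactory system, and it ran from 115 to 262. The 5 other genes (Ckm, Tnnt3, Tnnc2, Tnni2 and Myh8) lay above it on all 12 arrays. Of the 5 varying genes, 4, 5 and 3 lay above it in SMGA/EGFP 1, 2 and 3, 0, 3 and 0 in SMAA/EYFP 1, 2 and 3, and 3, 5, 2, 0, 3 and 2 in wild type 1 to 6. These counts depend on the level, which in wild type 5 was 132, near its Mylpf (150) and Myh3 (159). With the highest of the 32 probe sets as the level, the count over all 10 genes fell from 7, 8 and 7 to 5 in wild type 3, 5 and 6. In SMGA/EGFP 3 it fell from 8 to 6. Because the 5 other genes lay above the 95th percentile level everywhere, counting at least 5 of the 10 genes took in all 12 bladders, whatever the varying genes read. It took in all 12 also with the level set lower or higher, with all probe sets of a gene averaged and with normalized values. This count therefore cannot show which bladders carried striated muscle. The log2 SD over the 12 bladders was 0.554 for Tnni2 (rank 1031 of the 22518 probe sets tested) and 0.516 for Myh8 (rank 1350), and 0.268 to 0.370 for the other 3 of these 5 genes.

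Each gene was also set against the mean of the other 9 over the 12 bladders, which share the group structure above. Pearson's r was 0.95 for Mylpf, 0.94 for Atp2a1, 0.91 for Myog and Myh3, 0.81 for Myod1 and 0.72 for Tnni2, so that these 2 were close although Tnni2 is not among the varying genes. It was 0.53 for Myh8, falling to 0.20 without wild type 2. It was below 0 for Tnnc2 (-0.15), Ckm (-0.24) and Tnnt3 (-0.32). Without wild type 2, r was 0.94 for Mylpf, 0.88 for Myh3, 0.70 for Myod1 and 0.62 for Tnni2. These are descriptions of 12 bladders, and a few high bladders set much of each value.

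Wild type 2, SMGA/EGFP 1 and SMGA/EGFP 2 were the 3 highest arrays for 6 of the 10 genes (Myh3, Mylpf, Myog, Myod1, Atp2a1 and Tnni2). The same 3 arrays were the highest for 1.15% of all 18193 genes. These arrays were picked because of these genes, so the share among the 10 is a description. In 8 lists of other striated muscle genes, 24 of the 82 genes with a probe set, or 29.3%, had the same 3 highest arrays. In 9 lists of other cell types the count was 1 of 60, the cartilage collagen Col2a1, and among the genes of unrelated tissues it was 0 of 22.

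**Figure D2:**
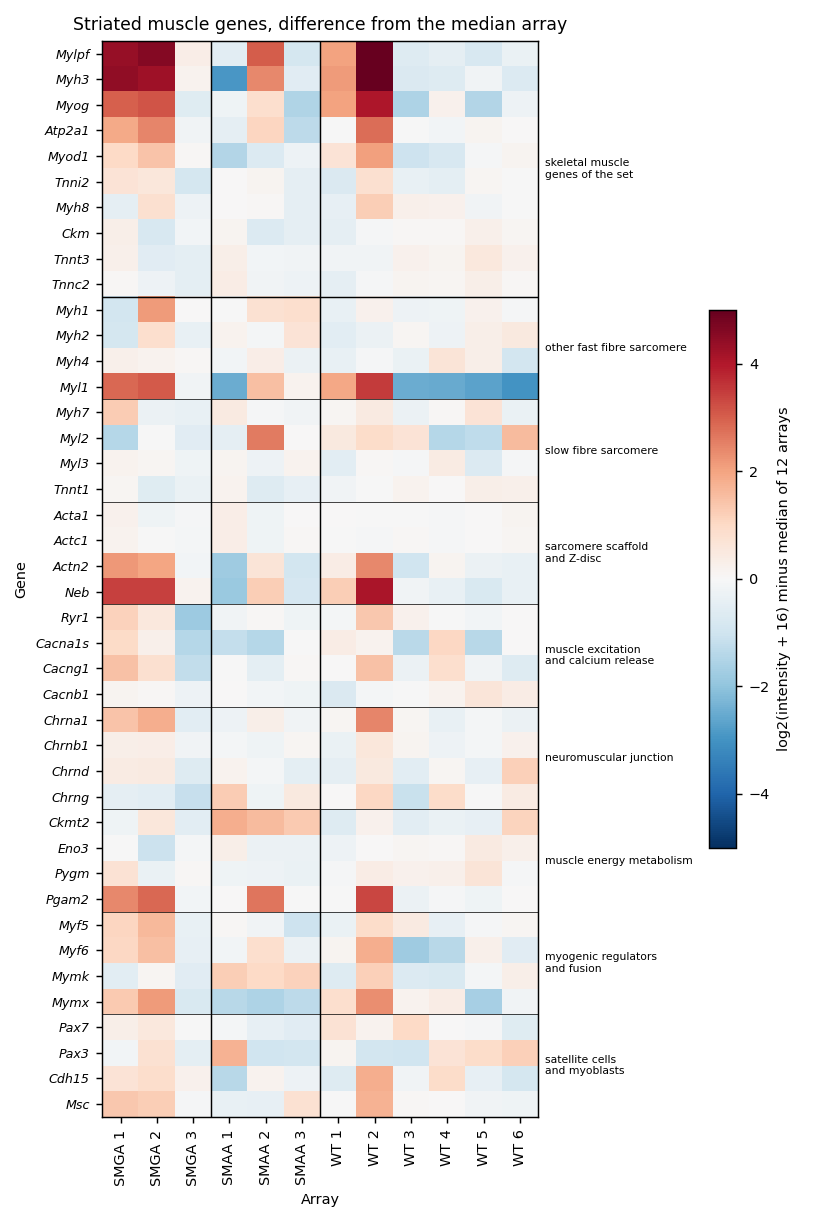
log2(intensity + 16) minus the median of the 12 arrays for the 10 skeletal muscle genes and for the first 4 genes of each of 8 other striated muscle lists, 1 column per bladder with SMGA/EGFP left of SMAA/EYFP and wild type. Red stands for above and blue for below the median, and the columns of SMGA/EGFP 1, SMGA/EGFP 2 and wild type 2 are red for Mylpf, Myh3, Myog, Myl1, Actn2 and Neb, while Acta1 and Actc1, at the top of the range of intensity, are pale throughout.

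Other sarcomere genes were high in the same bladders. Myl1, the essential light chain of fast myosin, read 11992, 13764 and 1423 in SMGA/EGFP bladders and 275, 4691 and 1861 in SMAA/EYFP bladders. In wild type it was 18511 in wild type 2, 6301 in wild type 1 and 192 to 276 in the other 4. Its log2 SD had rank 2, next to Myh3. Neb encodes nebulin, the ruler of the thin filament, and read 1105, 1114 and 105 in SMGA/EGFP bladders and 13.0, 233 and 43.2 in SMAA/EYFP bladders. Nebulin reached 1793 in wild type 2 and 234 in wild type 1 and stayed between 47.2 and 77.6 in the other wild-type bladders. Actn2, the alpha actinin of the Z-disc, read 1118, 971 and 211 in SMGA/EGFP bladders, 56.2, 376 and 117 in SMAA/EYFP bladders and 108 to 1317 in wild type.

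Acta1 and Actc1, the skeletal and cardiac alpha actins, read 46825 to 68807 and 43416 to 62044 over the 12 bladders. Both lay at the 99.7th percentile of an array or above, where a change may not be read. Smooth muscle actins are close in sequence to both, and whether these probes tell the actins apart was not tested. Tnnt1, the slow troponin T, read 3773 to 7317. In the slow fibre list, Tnni1, Tnnc1, Mybpc1 and Myoz2 had wild type 2, SMGA/EGFP 1 and SMGA/EGFP 2 as their 3 highest arrays. They are named here after their values were seen, as are Ttn, Myot, Myom2, Klhl41 and Klhl40, which did the same in the scaffold list beside Actn2 and Neb.

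The myosin heavy chains differed between the bladders with high Myh3. Myh2, a fast chain of adult fibres, read 1458, 4871 and 2091 in SMGA/EGFP 1, 2 and 3 and 3060, 2535 and 4322 in SMAA/EYFP bladders, against a wild-type range of 1879 to 3773. Myh1, another adult fast chain, read 156, 1420 and 314 in SMGA/EGFP 1, 2 and 3 and 304, 531 and 571 in SMAA/EYFP bladders, against 236 to 363 in wild type. SMGA/EGFP 2 was thus the highest bladder for both adult fast chains and SMGA/EGFP 1 the lowest. Myh7, the slow chain, was highest in SMGA/EGFP 1 at 2983, and the other 11 bladders lay between 948 and 1943. Wild type 2, with the most Myh3 and Myh8, read 2179 for Myh2 and 363 for Myh1, within the range of wild type. Myh4 stayed at or under 97.3 on all arrays, below the level of the unrelated tissues. The skeletal myosin genes are close in sequence, and reading of one by the probes of another was not tested.

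**Figure D3:**
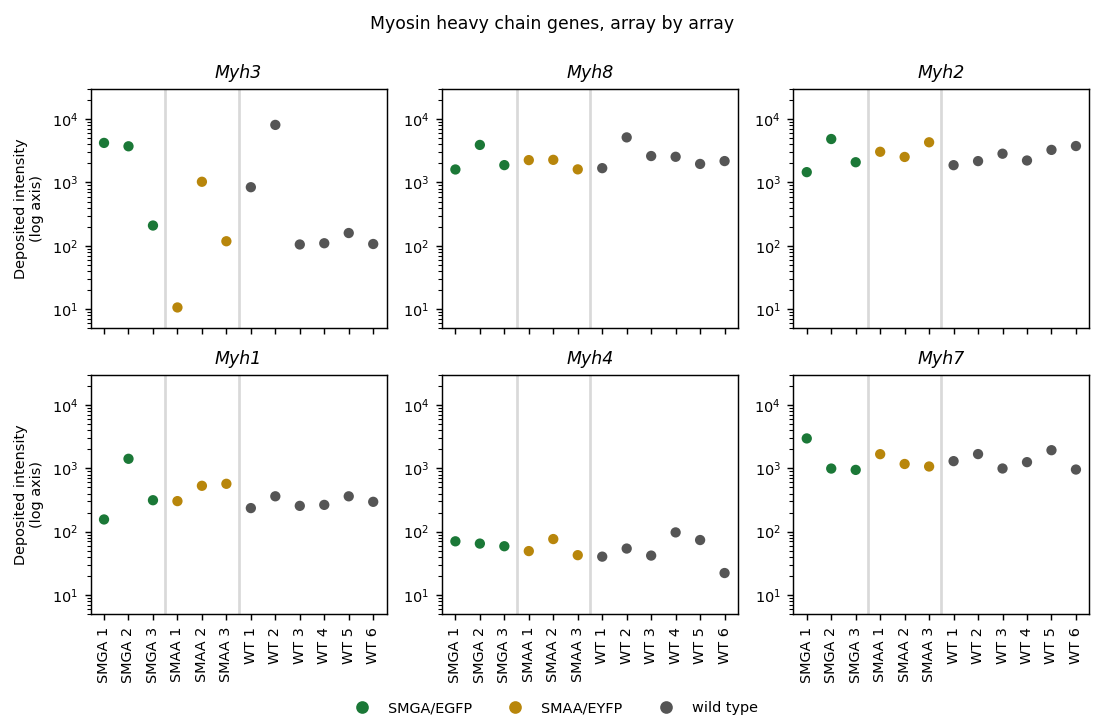
Deposited intensity (log axis) of 6 myosin heavy chain genes on the 12 arrays, 1 point per bladder, with SMGA/EGFP left of SMAA/EYFP and wild type. Myh3 spans 10.6 to 8145, Myh1 and Myh2 are highest in SMGA/EGFP 2 (1420 and 4871), and Myh7 is highest in SMGA/EGFP 1 (2983).

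Genes of excitation, the neuromuscular junction and energy supply were counted in the same way. Of 15 excitation genes, 3 had the same 3 highest arrays (Ryr1, Srl and Stac3). Stac3 lay above the level of the unrelated tissues on 1 array only. Ryr1, the calcium release channel, ran from 46.5 in SMGA/EGFP 3 to 552 in wild type 2. Of 8 junction genes, 2 had the same 3 highest arrays, and Chrna1, the alpha subunit of the muscle acetylcholine receptor, read 399, 532 and 90.5 in SMGA/EGFP bladders, 115, 174 and 123 in SMAA/EYFP bladders and 105 to 818 in wild type. Of 11 energy genes, 2 did so (Cox6a2 and Cox8b). Pgam2, the muscle phosphoglycerate mutase, read 329, 462 and 42.5 in SMGA/EGFP bladders and 48.7, 395 and 48.7 in SMAA/EYFP bladders. It was 631 in wild type 2 and 37.1 to 49.7 in the other wild-type bladders. Eno3, the muscle enolase, ran from 4218 to 12299.

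Among the regulators, Myf5, Myf6 and Mymx had the same 3 highest arrays. Myf6, a late myogenic factor, read 190, 272 and 59.4 in SMGA/EGFP bladders and 74.95, 165 and 66.4 in SMAA/EYFP bladders, with 341 in wild type 2 and 13.8 to 104 in the other wild-type bladders. Mymx, which drives myoblast fusion, read 164, 304 and 26.8 in SMGA/EGFP bladders and 8.99 to 13.4 in SMAA/EYFP bladders, with 353 in wild type 2 and 113 in wild type 1. Myf6 and Mymx both lay below the level of the unrelated tissues in SMGA/EGFP 1 (level 253) and wild type 1 (level 209). For Pax7, the marker of satellite cells, and Pax3, all probe sets lay below the level of the unrelated tissues on every array. The probe sets that stood for them reached 68.0 for Pax7 and 128 for Pax3, and a second Pax7 probe set reached 106 in SMGA/EGFP 2 and 100.3 in wild type 2.

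The 15 genes most like the set, out of 11721 genes ranked by Pearson's r with its mean over the 12 bladders, were led by Myom2 (r = 0.96), Synpo2l (0.96), Actn2 (0.95), Smpx (0.94) and Csrp3 (0.93). Myom2 is an M-band protein of the sarcomere, and Csrp3 is a muscle LIM protein. The rest were Cilp, Hrc, Alox12, Fst, Alox12e, Srl, Mef2c, Myl1, Hdac9 and Zmym5, down to r = 0.81. Synpo2l read 2083, 1844 and 394 in SMGA/EGFP bladders, 355, 731 and 454 in SMAA/EYFP bladders and 267 to 3411 in wild type. For 13 of the 15 the highest array was wild type 2, and r without that array ran from 0.74 to 0.95. Only 5 of the 15 stood in a list.

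Markers of other tissues were read array by array as a list score, the mean log2 deviation of a list's genes from their means over the 12 bladders. The score of the 5 varying muscle genes was 2.10, 2.44 and -0.72 in SMGA/EGFP 1, 2 and 3 and -1.82, 0.64 and -1.69 in SMAA/EYFP 1, 2 and 3. In wild type it was 3.14 in wild type 2, 0.54 in wild type 1 and -1.41 to -0.90 in the others. Smooth muscle, with 10 of 10 genes above the level of the unrelated tissues on every array, stayed between -0.11 and 0.12 in SMGA/EGFP, -0.07 and 0.11 in SMAA/EYFP and -0.19 and 0.16 in wild type. Its summed intensity was 347038 to 454365 in SMGA/EGFP, 346247 to 448020 in SMAA/EYFP and 358220 to 440537 in wild type. Of its genes, Acta2, Actg2, Myh11 and Mylk lay at the 99.8th percentile of an array or above, where a change may not be read.

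Neuron and Schwann cell genes (7 of 10 with a probe set) moved with some of these bladders. Their score was 0.49, 0.93 and 0.25 in SMGA/EGFP 1, 2 and 3 and -0.77, -0.36 and 0.72 in SMAA/EYFP 1, 2 and 3. In wild type it was 1.29 in wild type 1, 0.61 in wild type 2, -0.34 in wild type 3 and -1.14 to -0.81 in wild type 4 to 6. Within wild type, earlier against later record numbers, the median difference of the 7 genes was 1.25. In limma 0 of the 7 passed, and 5 had an unadjusted p under 0.05, beside 8.16% of all probe sets. The summed intensity of the list was 13285 to 22982 in SMGA/EGFP, 7223 to 18853 in SMAA/EYFP and 5039 to 26560 in wild type. SMAA/EYFP 2 was raised in the muscle genes with a nerve score below 0, and SMAA/EYFP 3 had a raised nerve score with low muscle genes. The part of nerve tissue in the muscle result was not tested.

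Mesothelial genes, which mark the outer lining of abdominal organs, had a low list score in all 3 SMGA/EGFP bladders, whether the muscle genes of these bladders were high or low. Not all 6 genes of the list followed it. Their score was -1.40, -1.45 and -1.15 in SMGA/EGFP 1, 2 and 3, 0.43 to 1.24 in SMAA/EYFP and -0.14 to 0.75 in wild type. In SMGA/EGFP against wild type, 3 of the 6 genes fell past the threshold, beside 14, or 0.0622%, of all probe sets tested. Gpm6a fell by 2.74 ± 0.34 (SE) on the log2 scale with an adjusted p of 0.00557 in limma, Lrrn4 fell by 2.75 ± 0.36 with 0.00946, and Muc16 fell by 2.06 ± 0.30 with 0.0167. With record order (earlier or later) as a block, Gpm6a and Lrrn4 passed in limma (adjusted p of 0.0197 and 0.0345) and Muc16 did not (0.0553). In that fit 10 probe sets passed over all tested. With only wild type 1 to 3 as controls, 0 of the 6 passed, with limma adjusted p of 0.152 for Gpm6a, 0.293 for Lrrn4 and 0.981 for Muc16, at differences of -2.27, -2.26 and -1.63, and 1 probe set passed over all tested. Within wild type, earlier against later record numbers, the differences of the 6 genes ran from -0.98 to -0.27 with a median of -0.79. In limma 0 of the 6 passed, and 0% of all probe sets did. An unadjusted p under 0.05 was found for 5 of the 6 in limma, beside 8.16% of all probe sets. In SMGA/EGFP against SMAA/EYFP the same 3 and Msln fell past the threshold, beside 18, or 0.0799%, of all probe sets tested. Summed intensity of the 6 was 15469 to 16972 in SMGA/EGFP, 26566 to 35459 in SMAA/EYFP and 17676 to 27332 in wild type. The part of this difference in the muscle result was not tested.

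Of the cardiac markers, Tnni3 stayed at or under 60.9 and Myh6 at or under 242, while Tnnt2 was at 33769 to 45615 on all arrays. The cardiac list score lay between -0.28 and 0.32 over the 12 bladders. Cartilage and tendon genes had a score of 0.09 to 0.35 in SMGA/EGFP, -0.41 to 0.01 in SMAA/EYFP and -0.34 to 0.39 in wild type, with the highest value in wild type 2. Col2a1 read 324, 248 and 149 in SMGA/EGFP bladders, 50.5, 194 and 81.6 in SMAA/EYFP bladders and 55.6 to 328 in wild type. The part of cartilage was not tested.

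**Figure D4:**
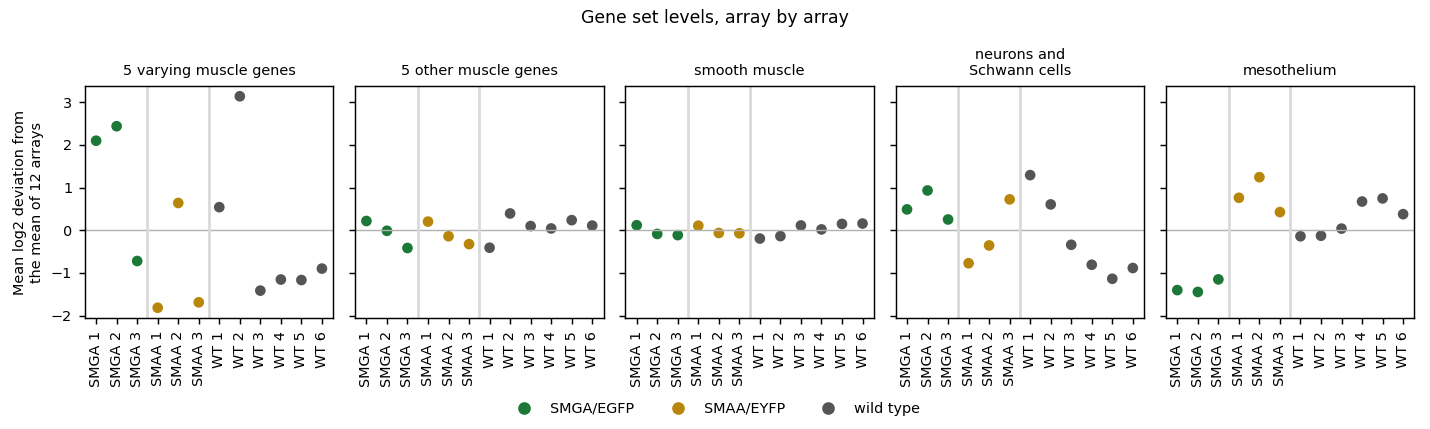
Mean log2 deviation from the mean of the 12 arrays for the 5 varying and 5 other muscle genes and for the smooth muscle, nerve and mesothelium lists, 1 point per bladder, with SMGA/EGFP left of SMAA/EYFP and wild type. The varying genes run from -1.82 to 3.14 and the smooth muscle list, several of whose genes are at the top of the range of intensity, from -0.19 to 0.16, and the mesothelium list is at or under -1.15 in the 3 SMGA/EGFP bladders.

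The design text asks what the transgenes do to the bladder profile. Between groups, the varying genes had a mean score of 1.27 ± 1.73 in SMGA/EGFP (SD, n = 3), -0.95 ± 1.38 in SMAA/EYFP (SD, n = 3) and -0.16 ± 1.76 in wild type (SD, n = 6). The spread within each group was thus about as large as the distance between groups. The 5 other genes had mean scores of -0.07 ± 0.32, -0.09 ± 0.27 and 0.08 ± 0.27 in the same 3 groups.

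Differences between groups were taken from limma, fitted on log2(intensity + 16) after quantile normalization over all 22518 probe sets above the median brightness, with Benjamini-Hochberg adjusted p and a threshold of 0.05. Of the 10 genes, 8 were bright enough to be tested. Myog and Myod1 were not, and their values come from the fit without that filter.

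In SMGA/EGFP against wild type, 0 of the 8 genes passed, and 0 had an unadjusted p under 0.05. Over all probe sets 14, or 0.0622%, passed, and 6.94% had an unadjusted p under 0.05. Mylpf averaged 11.29 ± 2.40 in SMGA/EGFP and 9.05 ± 2.35 in wild type (log2, SD, n = 3 and 6), a difference of 2.24 ± 1.33 (SE) with an adjusted p of 0.758. Myh3 differed by 2.08 ± 1.42 with 0.783, and Atp2a1 by 0.87 ± 0.70 with 0.805. These sizes rest on single bladders. Without SMGA/EGFP 3 they were 3.62 for Mylpf, 3.46 for Myh3 and 1.60 for Atp2a1. Mylpf was at 1.498 and Atp2a1 at 0.33 without SMGA/EGFP 2, and Myh3 was at 1.34 without SMGA/EGFP 1. Tnnt3 differed by -0.37 ± 0.18 with 0.724. Myog differed by 1.35 ± 1.12 and Myod1 by 0.61 ± 0.56 without the filter. No gene of the 10 had groups that did not overlap, against 2.46% of all genes. The median difference was 0.04 over the 8 genes and -0.01 over all probe sets tested.

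Among the arrays with earlier record numbers, these differences were smaller. With record order (earlier or later) as a block, SMGA/EGFP against wild type gave 0.69 ± 1.501 (SE) for Myh3, 0.89 ± 1.39 for Mylpf and 0.43 ± 0.79 for Atp2a1, all with an adjusted p near 1 in limma (0.9998). Wild type 2 and wild type 1, the 2 wild-type bladders with the most Myh3, both have the earlier numbers.

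In SMAA/EYFP against wild type, 0 of the 8 genes passed, 0 had an unadjusted p under 0.05 (4.81% of all probe sets), and 0% of all probe sets passed. Myh3 differed by -1.28 ± 1.42 (SE), Atp2a1 by -0.71 ± 0.70 and Mylpf by -0.31 ± 1.33, with limma adjusted p of 0.994, 0.994 and 0.998. Among the arrays with later record numbers the sign of 2 of these turned. With record order (earlier or later) as a block, Myh3 differed by 0.11 ± 1.501 and Mylpf by 1.05 ± 1.39. Without wild type 2, Mylpf differed by 0.56. Leaving out SMAA/EYFP 2 gave -2.66 for Myh3, -1.54 for Mylpf and -1.36 for Atp2a1, while Myh3 was -0.0038 without SMAA/EYFP 1 and Atp2a1 -0.14 without SMAA/EYFP 3. No gene of the 10 had groups that did not overlap, against 3.01% of all genes. Ckm differed by -0.34 ± 0.22, with a 95% interval from -0.82 to 0.15.

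In SMGA/EGFP against SMAA/EYFP, 0 of the 8 genes passed, 0 had an unadjusted p under 0.05 (9.32% of all probe sets), and 18 probe sets, or 0.0799%, passed over all tested. This comparison sets the earlier against the later record numbers, so that order and group cannot be told apart. Myh3 averaged 10.60 ± 2.39 in SMGA/EGFP and 7.24 ± 2.67 in SMAA/EYFP (log2, SD, n = 3 each), a difference of 3.36 ± 1.65 (SE) with an adjusted p of 0.556 in limma. The difference was 2.09 without SMAA/EYFP 1 and 4.74 without SMAA/EYFP 2. Mylpf differed by 2.55 ± 1.54 with 0.627 and Atp2a1 by 1.58 ± 0.81 with 0.569. With each array left out in turn, Mylpf ran from 1.80 to 3.93 (the highest without SMGA/EGFP 3). Atp2a1 ran from 1.01 (without SMAA/EYFP 3) to 2.31. Myod1 differed by 1.53 ± 0.64 in the fit without the filter, with an unadjusted p of 0.0318 and an adjusted p of 0.626.

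**Figure D5:**
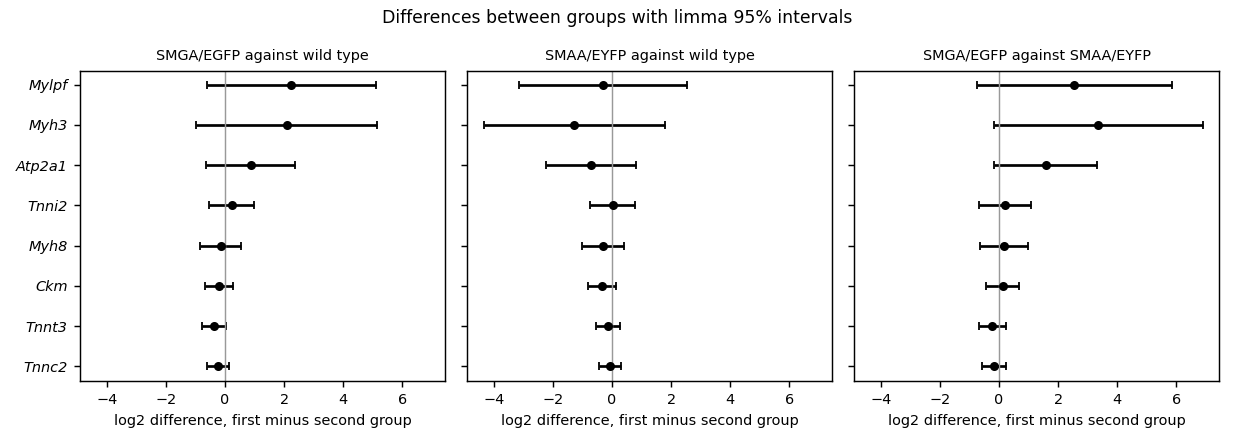
log2 differences with limma 95% intervals for the 8 skeletal muscle genes bright enough to be tested, with each transgenic group set against wild type and SMGA/EGFP set against SMAA/EYFP. All intervals include 0, and those of Myh3 and Mylpf are the widest (for Myh3 from -0.18 to 6.89 in SMGA/EGFP against SMAA/EYFP).

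Within wild type, the arrays with earlier and later record numbers gave differences of similar size. In wild type 1 to 3 against wild type 4 to 6, Myh3 differed by 2.79 ± 1.501 (SE), Mylpf by 2.71 ± 1.39 and Atp2a1 by 0.88 ± 0.79, with limma adjusted p of 0.651, 0.640 and 0.8004. Of the 8 genes 0 passed and 0 had an unadjusted p under 0.05 (8.16% of all probe sets), and 0% of all probe sets passed. The second Ckm probe set, which is not in this count, differed by -0.69 ± 0.24, with an unadjusted p of 0.0139 and an adjusted p of 0.502 in limma. Wild type 3, at 105, read like wild type 4 to 6 in Myh3. Without wild type 2 the differences were 1.23 for Myh3, 1.22 for Mylpf and -0.05 for Atp2a1, and without wild type 3 they were 4.21 for Myh3 and 4.06 for Mylpf.

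Of 87 other striated muscle genes in 8 lists, 82 had a probe set and 35 were bright enough to be tested, and 0 passed in any of the 4 comparisons. In limma, 1 had an unadjusted p under 0.05 in SMGA/EGFP against wild type (Eno3), 2 in SMAA/EYFP against wild type, 2 in SMGA/EGFP against SMAA/EYFP and 3 within wild type. These were 2.86%, 5.71%, 5.71% and 8.57% of the 35, beside 6.94%, 4.81%, 9.32% and 8.16% of all probe sets. Their median differences were -0.01, -0.16, 0.13 and -0.05, beside -0.01, 0.00, -0.02 and -0.02 over all probe sets tested.

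The largest spreads over the 12 bladders were shared by other genes. After Myh3 (rank 1), Myl1 (2) and Mylpf (4), the probe sets with a single gene included Alb (3), highest in wild type 1, and Clca1 (7), Mme (10) and Tspan1 (12), highest in wild type 2. Nerve genes such as Nefl, Vip and Snap25 were also among the first 20 and were highest in wild type 1. These genes are named after their values were seen. The array wild type 4 did not match its male label, with Xist at 29604, against 80.1 to 250 in the other 11 arrays, and Eif2s3y at 26.7, against 3284 to 5096. Its muscle genes were low (Myh3 at 109 and Mylpf at 195), like those of 3 other wild-type bladders.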

How the data were processed

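Linear intensity per probe set was deposited by the authors, made with GCOS per the submitters' processing notes; version, algorithm and detection calls are not given in the sources used here. The trimmed mean of each array lay between 1499.62 and 1499.83, so each array had been scaled by 1 factor, and medians ran from 229.39 to 305.94. RNA was amplified in 1 round per the labels. From 45101 probe sets 64 controls were left out. The deposited values were converted here to log2(intensity + 16), and were quantile-normalized. Probe sets with a mean above the median (log2 8.02) were tested with limma 3.58.1 in R 4.3.3 (intensity trend, all 12 arrays in one fit, two-sided). Wild type of earlier and of later record numbers was compared in a fit with 4 groups. The scripts were tested on simulated data. Symbols came from the platform annotation, updated through a RefSeq table of GRCm38.p6, which also gave the promoters. Of 45037 probe sets, 34945 had 1 symbol, 932 several and 9160 were not listed.

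The 10 genes and all lists were chosen with earlier results of these data known. Named are the 10 genes, the first 4 genes of a list with a probe set or genes past the threshold, the 15 most alike genes, Xist and Eif2s3y; others are named after their values were seen. Nothing says that the bladders came from separate litters, so p-values measure the spread between these samples, and the number of arrays limits the precision. Alternatives covered normalization, pseudocount, filter, variance model, array weights, record numbers, and leaving out each array.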

Additional observations from a re-analysis of the deposited data

Results flagged for a closer look

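Wild type 2 stood apart from the other 5 wild-type bladders in 6 of the 10 genes. The gap to the nearest bladder, as a share of the whole range of the 6, was above Dixon's 95% critical value for deposited intensity of Myh3 (8144.9), Myh8 (5168.1), Mylpf (10516), Myog (1497.3), Myod1 (475.74) and Atp2a1 (1483.6). On the log2 scale it was above that value only for Atp2a1 (10.523). In all, 7 of 20 groups of values (10 genes on 2 scales, which are not independent) were marked in this way, and all 7 by the same bladder. Chance marks about 1 in 20 groups where values follow a normal distribution. Linear intensity need not follow one, so the 6 marks on that scale cannot be set beside this rate. The SMGA/EGFP and SMAA/EYFP groups, with 3 arrays each, were not examined for this.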

How the results depend on the processing

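In all 4 comparisons, 0 of the genes tested passed under any alternative, and at least 5 of the 10 genes lay above the level of the unrelated tissues on 12 of 12 arrays under all 4 alternatives for that count. At the main level Ckm, Tnnt3, Tnnc2, Tnni2 and Myh8 alone met that count on every array, so it does not tell the bladders apart. Of the differences of single genes under alternatives other than leaving out an array, 348 kept their sign and side of the threshold and 9 turned sign. With array weights Tnni2 was -0.26 in SMGA/EGFP against wild type, -0.078 in SMAA/EYFP against wild type, -0.19 in SMGA/EGFP against SMAA/EYFP and -0.13 within wild type (earlier against later record numbers). With arrays centred on their median, Ckm was -0.020 in SMGA/EGFP against SMAA/EYFP and Tnni2 -0.045 within wild type. In SMAA/EYFP against wild type, Myh3 was 0.11 with record order (earlier or later) as a block, and Mylpf was 1.05 both with the block and with only wild type 4 to 6. The cause was not tested. Myh3 was not bright enough to be tested in that last fit.

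Leaving out each array in turn kept 359 differences and turned 25. In SMGA/EGFP against wild type these were Tnni2 (-0.070 to 0.73), Myh8 (-0.55 to 0.10) and Ckm (-0.47 to 0.088). In SMAA/EYFP against wild type they were Mylpf (-1.54 to 0.56), Tnni2 (-0.12 to 0.19) and Tnnc2 (-0.26 to 0.043). In SMGA/EGFP against SMAA/EYFP they were Ckm (-0.14 to 0.42), Tnni2 (-0.085 to 0.72), Myh8 (-0.24 to 0.41) and Tnnc2 (-0.32 to 0.019). Within wild type they were Myh8 (-0.095 to 0.73), Tnni2 (-0.42 to 0.36) and Atp2a1 (-0.050 to 1.40). Over all probe sets, the 14 calls of SMGA/EGFP against wild type became 1 with only wild type 1 to 3 as controls. The 18 of SMGA/EGFP against SMAA/EYFP became 4 without SMAA/EYFP 2. SMAA/EYFP against wild type gave 5 with arrays centred on their median or with array weights, in place of 0. The comparison within wild type gave 175 with array weights and 430 without wild type 3, in place of 0. No paired analysis was possible because the labels give the groups no shared replicate numbers.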
